A study of Mus musculus with 48 samples.

Results

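The miR-17-92 cluster was followed by its 7 measured members, mmu-miR-17-5p, mmu-miR-20a-5p, mmu-miR-18a-5p, mmu-miR-19a-3p, mmu-miR-19b-3p, mmu-miR-92a-3p and mmu-miR-17-3p, written below without the species prefix. They were taken by name, without regard to their values, from the 1409 entries of the deposited count tables, and all 7 were found. Small RNA had been sequenced in 48 libraries of C57BL/6 mice, to compare extracellular miRNAs of the airway and blood with those of airway cells during an allergic response. Allergic mice (AA) were injected intraperitoneally with 50 ug of ovalbumin in alum once a week for 3 to 4 weeks. From 7 days after the last injection they inhaled 50 ug of ovalbumin in 20 ul of PBS by oropharyngeal aspiration on 3 consecutive days. Immunized mice (IMM) had the same injections and then PBS alone by the same route, and mice of both groups were sampled at day 4, counted from the first challenge. Untreated mice (CTR) had neither. Lavage fluid, lavage cells (the pellet after a spin at 500 g for 5 minutes) and serum each had 7 allergic, 4 immunized and 3 untreated libraries. Epithelial brushings, for which cells of 1 to 3 mice were pooled, had 3, 2 and 1. Non-allergic below means immunized and untreated together.

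A miRNA cluster is a run of hairpins cut from a single primary transcript, so its members are made together, while the stability of each mature strand can differ. The miR-17-92 transcript is switched on by Myc and is abundant in dividing cells. In lymphocytes it promotes proliferation and survival, with the cell-death gene Bcl2l11 among its known targets. The seed near the 5' end of a miRNA chooses its targets, and members with the same seed form a family.

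In the mouse the 6 hairpins lie within 836 bases of the plus strand, chr14:115043671-115044506 (mm10). All of them are inside exon 2 (chr14:115043271-115046727) of the long non-coding gene Mir17hg, the host transcript, in the GENCODE annotation. The mature sequences below, from RefSeq on GRCm38.p6, are printed 5' to 3' with the seed, bases 2 to 8, in capitals. They show which members share targets and how few bases separate them, which bears on how reads can be assigned. The seed AAAGUGC is shared by miR-17-5p and miR-20a-5p, and that of miR-18a-5p has 1 other base. GUGCAAA is the seed of both miR-19 members. AUUGCAC belongs to miR-92a-3p, which is also known for restraining vessel growth. miR-17-3p is the other strand of the miR-17 hairpin.
miR-17-5p: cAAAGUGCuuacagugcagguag
miR-20a-5p: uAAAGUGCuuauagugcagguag
miR-18a-5p: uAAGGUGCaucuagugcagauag
miR-19a-3p: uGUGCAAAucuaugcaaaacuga
miR-19b-3p: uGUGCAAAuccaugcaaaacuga
miR-92a-3p: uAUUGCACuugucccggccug
miR-17-3p: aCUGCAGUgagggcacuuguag
The hairpin that gives miR-17-5p (first capitals) and miR-17-3p (second capitals) is shown whole, because its 2 strands are the only pair from 1 hairpin among the members.
Mir17: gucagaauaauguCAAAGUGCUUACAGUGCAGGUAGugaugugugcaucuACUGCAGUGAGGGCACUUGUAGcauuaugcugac

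Positions are counted from 1 at the 5' end of the first-named miRNA. miR-17-5p and miR-20a-5p differ at 2 bases, C1U and C12U, and miR-19a-3p and miR-19b-3p at 1 base, U11C. miR-19b-3p and miR-92a-3p are also made, with the same mature sequence, from Mir19b-2 and Mir92-2 on chromosome X (chrX:52741991-52742013 and chrX:52741854-52741874, minus strand). Their counts therefore cannot be divided between the 2 loci. Some deposited counts are fractions, as for reads shared between entries. They occurred in 25 of 48 libraries for miR-19b-3p, 24 for miR-92a-3p, 21 for miR-19a-3p, 17 for miR-20a-5p, 14 for miR-17-5p and 8 for miR-18a-5p, but in 0 for miR-17-3p.

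Libraries of lavage fluid totalled 135707 to 561803 counts, those of lavage cells 43087 to 960796, those of serum 137638 to 2738223 and those of brushings 113004 to 654157. A count of 3 was then worth 4.59 to 26.6 counts per 1000000 (CPM) in brushings, 5.34 to 22.1 CPM in fluid, 1.10 to 21.8 CPM in serum and 3.12 to 69.6 CPM in cells, which covers counting error only. Every member was detected in all 48 libraries, the lowest count being 4, for miR-17-3p. The libraries were deposited as sets 2, 3 and 4. All untreated libraries were in set 2, all immunized ones in sets 3 and 4, and allergic ones in each set, so allergic libraries were compared within sets. A set here is only a count table. Whether equal library numbers in different compartments mean the same mouse is not labelled, and the p-values cover only the spread among these libraries. Some lavage and brushing libraries stood apart in red blood cell miRNAs (miR-451a, miR-144-3p, miR-144-5p and the joined miR-486a-5p and miR-486b-5p entry), which bears on the results below. These miRNAs took 9.39% (95% Wilson interval 9.26 to 9.51, for counting error only, as for the intervals below) and 14.9% (14.8 to 15.0) of counts in allergic fluid libraries 2 and 6, and 17.1% (16.8 to 17.3) in allergic brushing library 1. In lavage cells they took 43.6% and 50.6% in allergic libraries 2 and 6, against 50.9% and 48.5% in untreated libraries 2 and 3. Serum was rich in them throughout, at 21.9 to 66.7% in allergic and 29.4 to 70.5% in non-allergic libraries. Epithelial and blood cell markers were present where the labels put such cells, but the epithelial ones did not tell brushings from lavage fluid. The 9 epithelial miRNAs took 16.4 to 23.0% of counts in brushings and 11.9 to 22.3% in fluid, and the miR-142a blood cell miRNAs took 2.30 to 23.8% in lavage cells.

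The cluster was a small part of each library and 2 members carried most of it. Its 7 members held 0.820 to 1.54% of counts in allergic fluid against 0.724 to 0.902% in non-allergic fluid, and 1.98 to 3.57% in allergic lavage cells against 0.991 to 1.87% in non-allergic ones. In serum they held 2.62 to 3.92% in allergic and 2.08 to 3.04% in non-allergic libraries, and in brushings 0.83 to 1.15% in allergic and 0.760 to 0.896% in non-allergic ones. Allergic and non-allergic shares did not overlap in lavage cells and overlapped in the other compartments. The separation in cells depended on the red blood cell entries in the total. Without them the members held 2.45 to 4.82% in allergic and 1.10 to 3.80% in non-allergic cells, and the groups overlapped. miR-19b-3p was the most abundant member in 30 of 48 libraries and miR-92a-3p in the other 18. miR-17-3p was the least abundant in 47 libraries, and in untreated serum library 1 this was miR-20a-5p. Over all libraries the median part of the cluster's counts was 33.1% for miR-19b-3p, 31.4% for miR-92a-3p, 13.3% for miR-17-5p, 9.48% for miR-20a-5p, 7.02% for miR-19a-3p, 3.49% for miR-18a-5p and 0.642% for miR-17-3p. Mature miRNAs hardly differ in length, but ligation favours some sequences, so these parts are shares of counts and not of molecules.

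The make-up of the cluster differed between groups in lavage fluid. miR-92a-3p made up 30.6 to 53.1% of the cluster's counts in allergic fluid, 32.0 to 36.1% in immunized fluid and 18.4 to 19% in untreated fluid. The immunized libraries lay inside the allergic range, and the untreated ones below both. Untreated libraries were all in set 2, where allergic ones held 32.5 to 38.6%, so group and set are mixed in these ranges. The ratio of miR-92a-3p to miR-19b-3p was 0.932 to 1.13 in allergic against 0.362 to 0.394 in untreated fluid of set 2. It was 0.683 and 1.87 in allergic against 0.852 and 1.04 in immunized fluid of set 3, and 1.87 and 3.16 against 0.880 and 0.967 in set 4. Allergic ratios were thus above the others in sets 2 and 4 and on both sides of them in set 3. These ratios were not tested. The 2 strands of the miR-17 hairpin varied in ratio, with miR-17-5p 6.33 to 33.6 times miR-17-3p in allergic and 8.80 to 29.7 times in non-allergic fluid. In untreated serum library 1 the ratio was 3.17, the lowest of the 48.

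**Figure D1:**
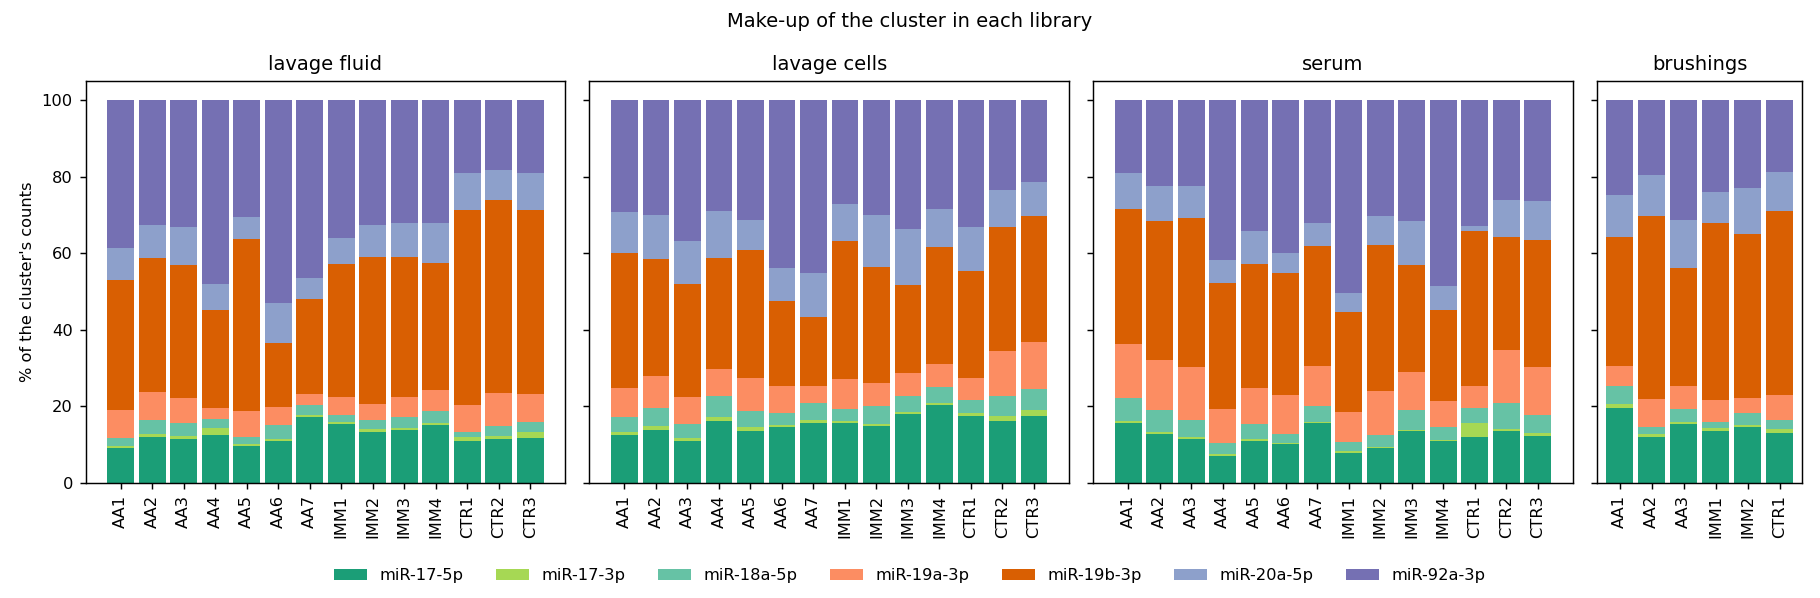
Stacked bars give, for every library, the percent of the summed counts of the 7 members that each member held, with allergic (AA) libraries left of immunized (IMM) and untreated (CTR) ones in each compartment. In lavage fluid of set 2, which holds all untreated libraries, the miR-92a-3p segment covers 32.5 to 38.6% in allergic and 18.4 to 19% in untreated libraries.

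Allergic mice had more of all 7 members in lavage fluid than non-allergic mice, by 1.28 to 2.82 times. miR-92a-3p changed most and miR-19b-3p least. The members' median log2 fold change was 0.75, beside 0.01 over the 253 miRNA entries tested. All 7 passed at an adjusted p under 0.05 (edgeR's quasi-likelihood test, Benjamini-Hochberg over all entries, also for the p-values below), in a compartment where 33.2% of entries passed and 19% passed as higher. CPM values in the comparisons of allergic with other mice were scaled with TMM (trimmed mean of M values) within the compartment.

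miR-92a-3p, the most abundant member in 4 of 7 allergic fluid libraries, was at 2860, 5382 and 9998 CPM (lowest, median and highest) in allergic fluid. It was at 2765, 2438, 2309 and 2167 CPM in immunized fluid and 1365, 1440 and 1347 CPM in untreated fluid. Every allergic library was above every other, a separation in that direction that 5.53% of entries showed. The means were 5454 ± 2257 CPM in allergic and 1976 ± 583 CPM in non-allergic fluid (SD, n = 7 each), and the log2 fold change was 1.49 ± 0.24 (SE, adjusted p = 0.00101). Within sets 2, 3 and 4 the mean log2 CPM was higher in allergic fluid by 1.90, 0.61 and 1.53.

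Of the AAAGUGC pair, miR-17-5p was at 890.0, 1465 and 2052 CPM (lowest, median and highest) in allergic fluid. It was at 1175, 984, 992 and 1019 CPM in immunized and 793, 906 and 839 CPM in untreated fluid. Allergic library 5 lay among the non-allergic ones and the other 6 above them. Its log2 fold change was 0.67 ± 0.17 (adjusted p = 0.0121). miR-20a-5p was at 495, 1299 and 1953 CPM in allergic fluid, against 512, 637, 643 and 718 CPM in immunized and 701, 599 and 691 CPM in untreated fluid. Allergic libraries 5 and 7 lay within or below the non-allergic range. Its log2 fold change was 0.74 ± 0.25 (adjusted p = 0.0368). miR-18a-5p was at 160, 303 and 695 CPM in allergic fluid, against 134, 185, 194 and 209 CPM in immunized and 92.9, 195 and 191 CPM in untreated fluid. One allergic library, number 5, lay within the non-allergic range, and the log2 fold change was 1.11 ± 0.29 (adjusted p = 0.0121).

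The miR-19 pair lay closest to the threshold in fluid. miR-19a-3p was at 238, 851 and 1231 CPM in allergic fluid, against 371, 311, 371 and 377 CPM in immunized and 508, 675 and 523 CPM in untreated fluid. miR-19b-3p was at 2237, 4190 and 5774 CPM in allergic fluid, against 2664, 2865, 2626 and 2242 CPM in immunized and 3674, 3971 and 3419 CPM in untreated fluid. For both members allergic and non-allergic libraries overlapped, and allergic library 7 was below all non-allergic ones. The log2 fold changes were 0.69 ± 0.25 and 0.36 ± 0.13, each with an adjusted p of 0.0498. miR-17-3p was at 46.1, 106 and 223 CPM in allergic fluid, against 39.6, 65.1, 42.4 and 38.2 CPM in immunized and 64.3, 55.9 and 95.4 CPM in untreated fluid. The groups overlapped, and the log2 fold change was 0.94 ± 0.30 (adjusted p = 0.0287).

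The within-set differences of mean log2 CPM were above 0 in fluid for all 7 members in each of the 3 sets, at 0.06 to 1.90. An exact permutation of the allergic label within sets (720 arrangements, two-sided, unadjusted, smallest possible p 0.0028) gave p under 0.05 for 6 members, and 0.0611 for miR-19a-3p. Several calls in fluid lay near the threshold and were lost with most single libraries left out. Of 14 removals, miR-19a-3p lost its call in 12 and miR-19b-3p in 11, and all 7 members stayed called in 1. Leaving out 1 library in turn left 3 members called without untreated library 1 or 2, immunized library 1 or 4, or allergic library 3 or 6. It left 4 called without untreated library 3 or allergic library 2. miR-92a-3p, miR-17-5p and miR-18a-5p stayed called in all 14 removals. Scaling by total counts, which moved the median of all entries to -0.206 on the log2 scale, also left 3.

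Blood cell miRNAs were higher in allergic fluid together with the cluster. The red blood cell entries, none of them at 0 in either group, took 1.26 to 14.9% of counts in allergic and 0.268 to 1.88% in non-allergic fluid. With allergic libraries 2 and 6 left out, 2 members were called, miR-92a-3p (log2 fold change 1.28, adjusted p = 0.00427) and miR-17-5p (0.53, 0.0382), while the other 5 had log2 fold changes of 0.32 to 0.82. How large a share of all entries was called without these libraries was not recorded. miR-223-3p, a myeloid miRNA, took 0.214 to 1.42% against 0.0450 to 0.187%, the 2 miR-142a strands of all blood lineages 0.389 to 1.83% against 0.179 to 0.341%, and the lymphocyte miRNA miR-150-5p 0.0834 to 0.190% against 0.0285 to 0.131%. The 9 epithelial miRNAs took 11.9 to 21.9% in allergic and 12.0 to 22.3% in non-allergic fluid. The 2 endothelial miRNAs took 0.0680 to 0.162% in allergic and 0.101 to 0.738% in non-allergic fluid, and the 5 fibroblast and muscle miRNAs 0.458 to 0.972% and 0.731 to 3.10%. The part of these cells in the members' rise was not tested, and in bulk samples more cells of a type and more RNA per cell cannot be told apart.

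**Figure D2:**
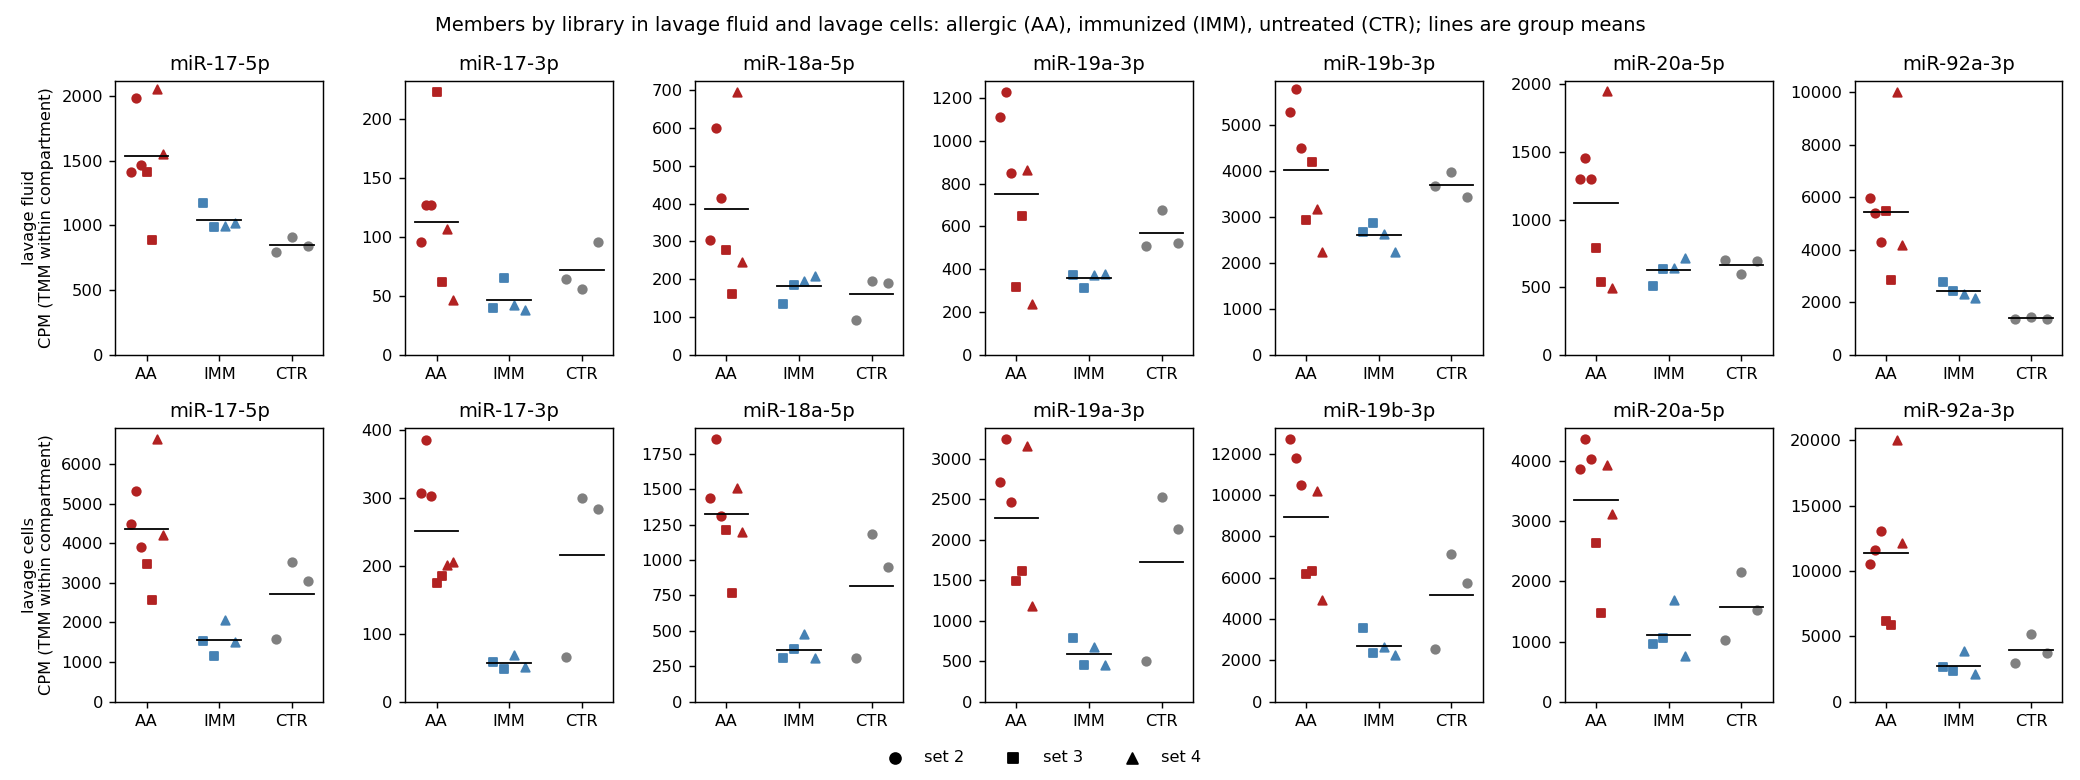
Points are libraries in CPM (linear axes, TMM scaling within the compartment) for each member in lavage fluid (upper row) and lavage cells (lower row), with allergic (AA) left of immunized (IMM) and untreated (CTR) libraries, marker shapes for library sets and lines at group means. Only miR-92a-3p has every allergic library above every other library in both rows.

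All 7 members were also higher in the lavage cells of allergic mice, by 2.16 to 3.31 times. The median log2 fold change of the members was 1.28, beside 0.04 over the 217 entries tested. All 7 were called as higher, where 56.2% of entries were called and 29.5% called as higher, so a call alone was common in this compartment. The members stood between the 19th and the 36th highest log2 fold changes of the 217.

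miR-92a-3p was again the member with the largest change in cells. It was at 5903, 11632 and 20034 CPM (lowest, median and highest) in allergic cells. It was at 2666, 2338, 3869 and 2113 CPM in immunized and 2980, 5145 and 3742 CPM in untreated cells. The allergic libraries were all above the others, as for 10.1% of entries. The log2 fold change was 1.73 ± 0.22 (adjusted p = 2.05e-05), with means of 11360 ± 4767 CPM in allergic and 3265 ± 1061 CPM in non-allergic cells (SD, n = 7 each).

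For the other members 2 untreated libraries reached into the allergic range. miR-17-5p was at 2559, 4196 and 6629 CPM in allergic cells, against 1530, 1149, 2060 and 1503 CPM in immunized and 1572, 3527 and 3036 CPM in untreated cells. miR-20a-5p was at 1467, 3861 and 4366 CPM in allergic cells, against 953, 1054, 1690 and 751 CPM in immunized and 1032, 2152 and 1521 CPM in untreated cells. miR-18a-5p was at 770, 1307 and 1853 CPM in allergic cells, against 312, 373, 480 and 308 CPM in immunized and 311, 1181 and 954 CPM in untreated cells. Each allergic library was above each immunized one for miR-17-5p and miR-18a-5p, but not for miR-20a-5p. The share of all entries with this separation was not counted, and 22.1% of entries were called as higher over immunized cells. The log2 fold changes against non-allergic cells were 1.11 ± 0.22, 1.32 ± 0.22 and 1.33 ± 0.27 for miR-17-5p, miR-20a-5p and miR-18a-5p.

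miR-19b-3p was at 4913, 10213 and 12708 CPM in allergic cells, against 3560, 2370, 2649 and 2265 CPM in immunized and 2538, 7144 and 5744 CPM in untreated cells. miR-19a-3p was at 1186, 2463 and 3240 CPM in allergic cells, against 783, 452, 676 and 450 CPM in immunized and 508, 2532 and 2133 CPM in untreated cells. miR-17-3p was at 174, 206 and 385 CPM in allergic cells, against 58.9, 47.6, 68.5 and 50.8 CPM in immunized and 65.5, 299 and 284 CPM in untreated cells. For all 3 the allergic libraries were above the immunized ones, again without a count over all entries, and overlapped untreated libraries 2 and 3. The log2 fold changes were 1.28 ± 0.23, 1.23 ± 0.34 and 1.20 ± 0.31 for miR-19b-3p, miR-19a-3p and miR-17-3p, and the adjusted p-values of the 6 members other than miR-92a-3p were 0.00017 to 0.00627.

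The calls in cells did not depend on any 1 library. Within sets all 21 differences were above 0, at 0.82 to 2.45 on the log2 scale. All 7 members stayed called in each of the 14 removals of 1 library, and the exact permutation within sets gave p under 0.05 for each. Untreated libraries 2 and 3, the high ones above, held the red blood cell miRNAs at 50.9% and 48.5% of counts, against 12.0% in untreated library 1. Without these and allergic libraries 2 and 6, which leaves 1 untreated library, all 7 members were called with log2 fold changes of 1.32 to 1.91. The share of all entries called in that fit was not recorded. In cells miR-150-5p took 1.25 to 2.43% of counts in allergic and 0.0484 to 0.337% in non-allergic libraries, the miR-142a strands 5.06 to 23.8% and 2.30 to 3.69%, and miR-223-3p 3.31 to 8.41% and 0.471 to 4.21%. The epithelial miRNAs took 0.352 to 1.34% and 2.28 to 4.28%. Their part in the members' rise in cells was not tested.

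Against untreated and immunized mice separately, miR-92a-3p was the 1 member called in both comparisons in fluid. Its log2 fold change in fluid was 1.97 ± 0.32 over untreated (adjusted p = 0.000924) and 1.13 ± 0.28 over immunized mice (adjusted p = 0.0375). Over untreated mice miR-18a-5p (1.52), miR-20a-5p (1.08) and miR-17-5p (0.99) were also called in fluid, 4 of 7 where 28.2% of entries were called and 16.3% as higher. Over immunized mice no other member was called in fluid, where 5.44% of entries were called and 4.42% as higher, and their log2 fold changes were 0.23 to 1.09. In cells all 7 were called over immunized mice, at 1.36 to 1.92 (38.4% of entries called, 22.1% as higher), and 4 over untreated mice (39.5% and 21.3%), namely miR-92a-3p at 1.61, miR-20a-5p at 1.41, miR-19b-3p at 1.22 and miR-17-5p at 0.78. The call for miR-17-5p in cells had an adjusted p of 0.0489 and was lost in 10 of 14 removals of 1 library, and kept without untreated library 2, immunized library 2 or allergic library 6 or 7. In fluid the call for miR-20a-5p over untreated mice was lost in 9 of 14 removals and that for miR-92a-3p over immunized mice in 7, without immunized library 2, 3 or 4 or allergic library 1, 2, 4 or 6 (adjusted p up to 0.153). Without the red-cell-rich libraries the log2 fold changes of the 7 members over untreated mice in cells were 1.54 to 2.48. They rest on a single untreated library, number 1, which had the lowest total of all 48 libraries, 43087 counts.

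The change over untreated mice did not differ from that over immunized mice for any member at an adjusted p under 0.05 (edgeR, 0 of 21 tests over fluid, cells and serum, 1 at an unadjusted p under 0.05, and 0 with DESeq2). In these tests 1.02%, 0.775% and 3.18% of all entries in fluid, cells and serum were called. The 1 unadjusted difference was miR-17-3p in cells, at -1.22 ± 0.53. The difference for miR-92a-3p in fluid was 0.83 ± 0.42 (adjusted p = 0.302). The 2 comparisons rest on different sets, so the state of the control mice and the set cannot be told apart.

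In serum no change of any member was called (edgeR, 0 of 7, with 0 at an unadjusted p under 0.05 and 0 with DESeq2), as for 0.0% of the 347 entries. miR-92a-3p, which separated the groups in lavage fluid and cells, was at 7176, 8422 and 10416 CPM (lowest, median and highest) in allergic serum. It was at 12420, 6607, 7987 and 11529 CPM in immunized and 6605, 13107 and 6550 CPM in untreated serum. The groups overlapped throughout, and the log2 fold change was -0.05 ± 0.24. miR-19b-3p had the largest log2 fold change there, 0.34 ± 0.23, and miR-17-3p the lowest, -0.27 ± 0.29. Over untreated mice 9.29% of entries and no member were called in serum, and over immunized mice 0.0% and no member. Against untreated mice leaving out untreated serum library 2 made 4 members pass, with log2 fold changes of 1.75 for miR-19a-3p, 1.52 for miR-18a-5p, 1.38 for miR-17-5p and 1.23 for miR-19b-3p. That library held 14969 CPM of miR-19b-3p, against 8137 and 8235 CPM in the other untreated ones. Red blood cell miRNAs took 70.5% of its counts, against 55.9% and 51.3% in those. Of those, untreated library 1 had the lowest total in serum, 137638 counts. The share of all entries called without library 2 was not recorded, so these 4 calls have no background beside them. Among allergic serum libraries miR-19a-3p differed by set. The 3 of set 2 held it at 4923 to 7267 CPM and the 4 of sets 3 and 4 at 1968 to 2642 CPM. miR-92a-3p overlapped between them, at 8080 to 9912 CPM and 7176 to 10416 CPM. These differences were not tested.

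In the brushings no change was called either (edgeR, 0 of 7, 1 at an unadjusted p under 0.05, namely miR-18a-5p, and 0 with DESeq2), where 2.94% of 306 entries were. miR-20a-5p was at 1312, 968 and 1152 CPM in allergic brushings, against 692 and 898 CPM in immunized and 861 CPM in untreated ones. miR-19a-3p was at 597, 651 and 558 CPM in allergic brushings, against 479 and 301 CPM in immunized and 556 CPM in the untreated one. For both members each allergic library was above each non-allergic one, as for 7.84% of entries, with log2 fold changes of 0.48 ± 0.21 and 0.49 ± 0.24. miR-19b-3p overlapped between the groups, at 3982, 4340 and 2812 CPM in allergic brushings against 3959, 3204 and 4049 CPM in the 3 others. The exact permutation within sets has 8 arrangements here and cannot give a p under 0.25. Leaving out the untreated library made miR-19a-3p pass, at an adjusted p of 0.0492. The red blood cell entries took 0.787 to 17.1% of counts in allergic and 0.177 to 0.732% in non-allergic brushings. Without allergic library 1, the highest of them, no member was called and the log2 fold change of miR-18a-5p was 0.42, against 0.72 with it.

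**Figure D3:**
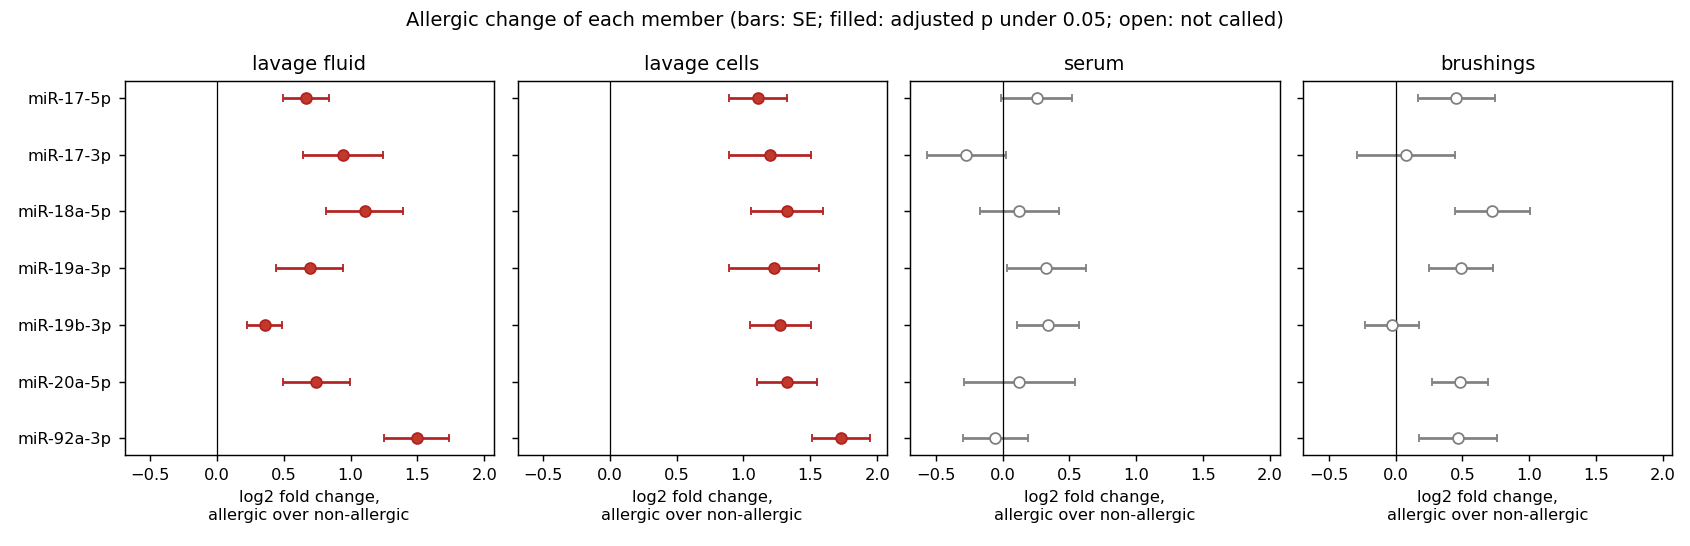
Points are log2 fold changes of allergic over non-allergic libraries for each member and compartment, with SE bars and filled points at an adjusted p under 0.05. All 7 members are filled in lavage fluid (0.36 to 1.49) and lavage cells (1.11 to 1.73), and none in serum or brushings.

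Between compartments the members were ordered in much the same way in non-allergic mice, highest in serum, then lavage cells, then fluid and brushings. A joint fit of all 48 libraries gave these tests, and its CPM values are scaled over all compartments. Of the percentages given below, the first is the share of entries called in either direction and the second the share called in the members' direction. Of 42 tests, 7 members in 6 pairs of compartments, 31 were called. Fluid was below serum for all 7, by 1.79 to 3.05 on the log2 scale (76.4%, 38.1%). Cells were below serum for all 7, by 0.97 to 1.87 (68.2%, 39.8%). Serum was above brushings for all 7, by 1.39 to 2.88 (65.9%, 32.1%). Fluid was below cells for 6 of 7 (66.2%, 24.6%), while miR-19b-3p was not called, at -0.24 ± 0.20. That value was unsettled, since DESeq2 called all 7 members and 18 of 48 removals of 1 library made miR-19b-3p pass, at down to -0.75. Cells were above brushings for miR-17-5p, miR-18a-5p, miR-19a-3p and miR-92a-3p (60.7%, 22.6%). No member was called between fluid and brushings (edgeR, 0 of 7, 0 at an unadjusted p under 0.05 and 0 with DESeq2, where 11.5% of entries were called), with log2 differences of -0.40 to 0.16.

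In allergic mice 30 of 42 tests were called, and fewer of them between lavage cells and serum. miR-92a-3p had a median of 4342 CPM in allergic fluid, 11395 CPM in allergic cells, 10085 CPM in allergic serum and 2443 CPM in allergic brushings, against 2180, 2680, 10267 and 1804 CPM in the same compartments of non-allergic mice. Cells and serum differed in 2 of 7 tests (65.2%, 33.1%), with miR-19a-3p and miR-19b-3p lower in cells by 0.95 and 0.58 on the log2 scale. For the other 5 the difference was -0.29 to 0.53 and was not called. Fluid was below cells for all 7, by 1.14 to 1.93 (71.4%, 31.3%), and below serum for 6 of 7 (72.4%, 35.3%), where miR-17-3p differed by -0.69 ± 0.33 (adjusted p = 0.0559). DESeq2 called all 7 members there too, and miR-17-3p passed in 36 of 48 removals, at down to -1.51 without allergic fluid library 4. Cells were above brushings for all 7, by 1.14 to 2.17 (70.2%, 32.1%), and serum was above brushings for all 7 (65.4%, 32.1%). Fluid was above brushings for miR-92a-3p alone, by 1.02 ± 0.32 (adjusted p = 0.0235; 15.3%, 7.77%).

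**Figure D4:**
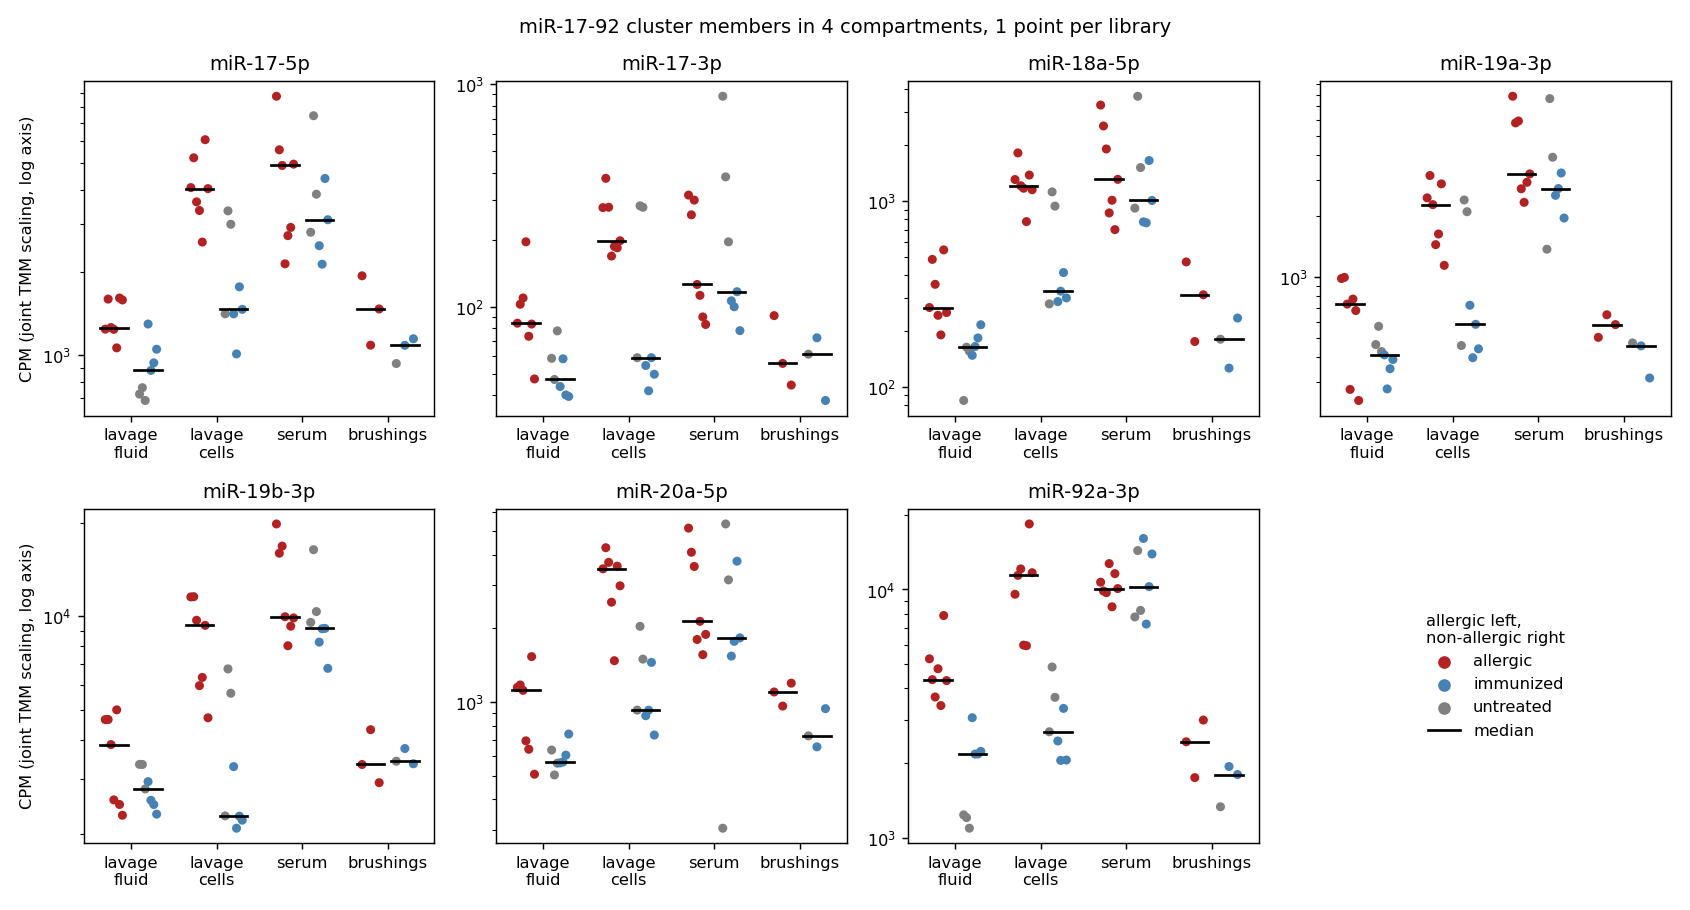
Points are libraries in CPM (log axes, TMM scaling over all 48 libraries) by compartment, one panel per member, with allergic libraries left of non-allergic ones and lines at medians. The median of miR-92a-3p is 11395 CPM in allergic and 2680 CPM in non-allergic lavage cells, and 10085 and 10267 CPM in serum.

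The allergic change itself differed between compartments in 10 of 42 interaction tests, chiefly between lavage cells and serum. There 6 of 7 members changed more in cells, by 0.87 to 1.87 on the log2 scale, where 29.8% of entries differed and 16.5% in that direction. miR-92a-3p differed most (1.87 ± 0.33, adjusted p = 4.49e-05), and miR-19a-3p was the one not called (0.90 ± 0.42, adjusted p = 0.109). miR-92a-3p also changed more in fluid than in serum, by 1.43 ± 0.33 (adjusted p = 0.00233; 8.02%, 6.52%). miR-19b-3p changed less in fluid than in cells, by 0.96 ± 0.28 (adjusted p = 0.0132; 17%, 7.02%). miR-19b-3p and miR-92a-3p changed more in cells than in brushings, by 1.30 ± 0.37 and 1.31 ± 0.43 (12.5%, 6.02%). No member differed between fluid and brushings (edgeR, 0 of 7, 1 unadjusted, 0 with DESeq2, 1.0% of entries) or between serum and brushings (0 of 7, 0 unadjusted, 0 with DESeq2, 0.0%). In 32 of 48 removals of 1 library the number of calls moved by more than 1.5 times, between 2 and 12 over all removals, and 20 removals left 4. Both calls of miR-92a-3p against serum, from fluid and from cells, were made in all 48 removals. That of miR-17-3p between cells and serum was lost in 4 and that of miR-19b-3p between cells and brushings in 8. The other 6 were lost in 27 to 38. Leaving the red blood cell entries out of the tables left 4 calls, and leaving out the red-cell-rich libraries gave 11.

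**Figure D5:**
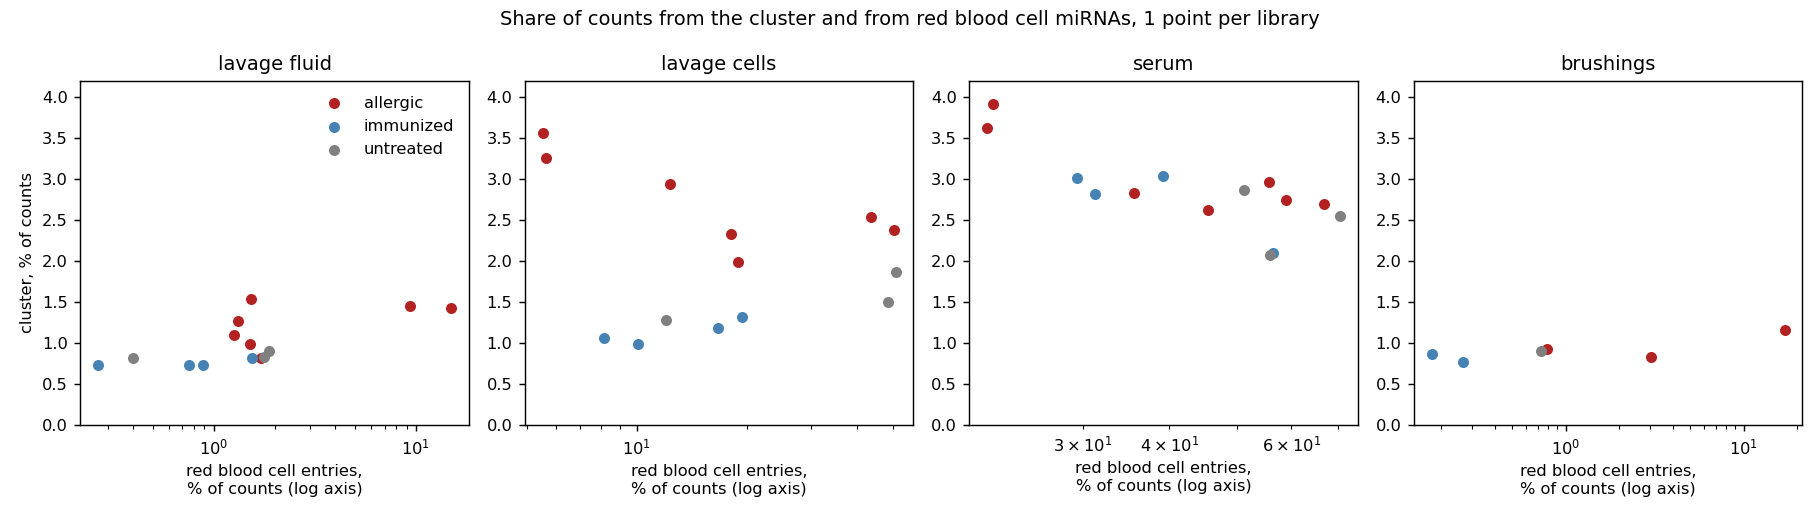
Each point is a library, with the percent of counts in the red blood cell entries (log axis) against the percent in the 7 members of the cluster, by compartment and group. In lavage cells the allergic libraries hold 1.98 to 3.57% in the cluster, above the 0.991 to 1.87% of the others. The total includes the red blood cell entries. Without them the shares overlap, at 2.45 to 4.82% in allergic and 1.10 to 3.80% in non-allergic cells.

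Other loci encode miRNAs with the same seeds, and they did not all move with the cluster. miR-106b-5p, miR-93-5p and miR-25-3p come from the miR-106b-25 cluster inside Mcm7 on chromosome 5, miR-106a-5p, miR-18b-5p, miR-20b-5p and miR-363-3p from the miR-106a-363 cluster on chromosome X, and miR-92b-3p from chromosome 3. The sequences of those whose values follow are given with the seed in capitals, since miR-106a-5p differs from miR-17-5p only by U10A, miR-20b-5p from miR-20a-5p only by U1C and U10C, miR-18b-5p from miR-18a-5p only by A18U and A20U, and miR-25-3p from miR-92a-3p by U1C, C14U and C18U and by 1 base in length.
miR-25-3p: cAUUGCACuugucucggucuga
miR-92b-3p: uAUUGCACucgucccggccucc
miR-363-3p: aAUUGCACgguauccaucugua
miR-106a-5p: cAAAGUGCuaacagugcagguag
miR-20b-5p: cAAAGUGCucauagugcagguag
miR-18b-5p: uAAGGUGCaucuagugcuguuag
miR-93-5p: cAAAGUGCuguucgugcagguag
miR-106b-5p: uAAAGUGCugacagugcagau
Of these 8 relatives, 4 passed the filter on low counts in fluid and 3 were higher in allergic mice, miR-25-3p at a log2 fold change of 1.85 ± 0.36, miR-93-5p at 0.60 ± 0.19 and miR-106b-5p at 0.56 ± 0.18. miR-92b-3p had 0.45 ± 0.17 (adjusted p = 0.0573). In cells 5 passed the filter, miR-20b-5p among them through its allergic libraries alone. miR-25-3p (0.94 ± 0.34) and miR-93-5p (0.56 ± 0.21) were higher in allergic mice, with log2 fold changes below the 1.11 of the least changed member. miR-92b-3p, with the seed of miR-92a-3p, fell by 1.52 ± 0.22 (adjusted p = 6.05e-05). It was at 341 to 914 CPM in allergic and 1045 to 2110 CPM in non-allergic cells. These did not overlap, as for 16.6% of the 217 entries in either direction. miR-106b-5p had 0.52 ± 0.24 (adjusted p = 0.0714). The differences between these changes and those of the members were not tested.

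The chromosome X relatives were rare, and their counts were higher in allergic than in non-allergic cells. Allergic cell libraries totalled 184529 to 960796 counts and non-allergic ones 43087 to 207008, so CPM values are given beside the counts. miR-20b-5p had 19 to 108 counts in each of the 7 allergic cell libraries, 331 in all, against 0 to 4.5 in the 7 non-allergic ones, 8.5 in all. In CPM it was at 92.6 to 292 against 0 to 32.4. The groups did not overlap, and 10.1% of entries tested in cells had every allergic library higher. This entry passed the filter only through its allergic libraries. miR-18b-5p, the rarest, had 17 counts over allergic and 0 over non-allergic cells. miR-363-3p had 146 counts in allergic against 4 in non-allergic cells and miR-106a-5p 241 against 6. CPM was 53.6 to 96.2 against 0 to 16.2 for miR-363-3p, and 1.59 to 20.6 against 0 for miR-18b-5p. For miR-106a-5p it was 0 to 186 against 0 to 21.8, which overlapped. None of these 3 passed the filter over all cell libraries. No fold change is given for the 4, since they could pass a filter on low counts only through the allergic libraries. Summed counts of miR-20b-5p equalled 4.69% of those of miR-20a-5p in allergic and 0.603% in non-allergic cells, and 2.68% and 1.89% in serum. miR-363-3p stood at 0.651% of miR-92a-3p in allergic and 0.114% in non-allergic cells. How much of miR-19b-3p and miR-92a-3p came from that locus was not tested.

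The other strands of the cluster's hairpins were rare in the airway. None of miR-18a-3p, miR-19a-5p, miR-19b-1-5p, miR-20a-3p and miR-92a-1-5p passed the filter for allergic against non-allergic fluid or cells. In cells miR-18a-3p had 146 counts over 7 allergic and 41 over 7 non-allergic libraries, and miR-20a-3p 75 and 16. The median total of these libraries was also higher in allergic mice, 222614 against 145613 counts. Scaled for depth, the median CPM was 59.4 and 36.3 for miR-18a-3p and 44.8 and 7.93 for miR-20a-3p. In the fit with separate control groups miR-18a-3p did pass in cells and was not called, at 0.59 ± 0.56 over untreated (adjusted p = 0.409) and 1.20 ± 0.52 over immunized mice (adjusted p = 0.0771). In serum miR-18a-3p, at 1012 and 782 counts, had a log2 fold change of -0.04 ± 0.29 (adjusted p = 0.949).

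Across libraries 5 members were most like another member, and outside the cluster 6 of 7 were most like a relative. Likeness is the mean of the Pearson correlations of log2 CPM within the 3 sets (20, 14 and 14 libraries), a description that compartment differences and scaling shape in part. Of entries outside the cluster, miR-93-5p was most like miR-17-5p (0.94), miR-106b-5p most like miR-18a-5p (0.95), miR-19a-3p (0.93), miR-19b-3p (0.87) and miR-20a-5p (0.86), and miR-25-3p most like miR-92a-3p (0.94). miR-17-3p was the exception, with miR-186-5p first at 0.83, before miR-363-3p (0.81) and miR-130b-3p (0.78). In the next places stood miR-106b-5p (0.92) and miR-16-2-3p (0.89) for miR-17-5p, miR-93-5p (0.94) and miR-15b-3p (0.93) for miR-18a-5p, and miR-484 (0.91) and miR-15b-3p (0.88) for miR-19a-3p. They were the joined miR-669a-3p and miR-669o-3p entry (0.87) and miR-484 (0.84) for miR-19b-3p, miR-350-3p and miR-93-5p (both 0.82) for miR-20a-5p, and miR-15b-3p (0.92) and miR-484 (0.90) for miR-92a-3p. Among the members themselves the value was highest for miR-17-5p with miR-18a-5p and for miR-19a-3p with miR-19b-3p (both 0.96), each above that of any entry outside the cluster. It was 0.91 for miR-20a-5p with miR-18a-5p, and lowest for miR-17-3p with miR-20a-5p (0.66), although those with miR-17-3p rest on its low counts.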

How the data were processed

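Small RNA libraries of 4 compartments were analysed from the expected counts that the authors deposited per mature miRNA in 3 tables, 1 per library set. Of these values 4.40% were not whole. Trimming with cutadapt, use of DESeq2 and the mm10 build are named per the submitters' processing notes, without versions or roles, the aligner not being given in the sources used here. Per the labels' protocols, 20 to 65 ng of RNA and adapters with 5 random nucleotides were used. A deposited RPM table was not used here. Of the 1409 entries, 26 join several names, none of them a member, and every column matched a labelled library.

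Expected counts were rounded before the fits, as planned, which changed library totals by at most 0.00928%. edgeR 4.0.16 with limma 3.58.1 in R 4.3.3 was used (filterByExpr at a minimum count of 10, TMM, robust quasi-likelihood fits), with library set as a term, one fit per compartment and one joint fit, and Benjamini-Hochberg adjustment over all entries tested at a threshold of 0.05. Likeness used a prior count of 1. Each SE was derived as effect divided by root F. DESeq2 1.42.0, other scalings, filters and designs, and leaving out each library were alternatives. The pipeline was tested on simulated data. Descriptions and figures used Python 3.11.15, pandas 2.3.3 and matplotlib 3.10.9. All 7 members are named in every comparison, relatives and other strands where values are given, and for likeness the 3 most alike entries were taken. The members, lists and tests were chosen with earlier results of these data known. The leaving out of red-cell-rich libraries (over 5% in fluid and brushings, over 40% in cells) was added after seeing the data.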

Additional observations from a re-analysis of the deposited data

Results flagged for a closer look

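The allergic change of single members differed between compartments in 10 tests of the difference itself (edgeR's quasi-likelihood test, adjusted p under 0.05). Between lavage cells and serum the log2 difference was 1.872 for miR-92a-3p, 1.567 for miR-17-3p, 1.214 for miR-20a-5p, 1.196 for miR-18a-5p, 0.9708 for miR-19b-3p and 0.8741 for miR-17-5p, in each case higher in cells. Between lavage fluid and serum it was 1.427 for miR-92a-3p. Between fluid and cells it was -0.9638 for miR-19b-3p, and between cells and brushings 1.302 for miR-19b-3p and 1.309 for miR-92a-3p.

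Some libraries lay far from the rest of their group. In immunized lavage fluid, library 2 had 65.12 CPM of miR-17-3p, above the 38.2 to 42.4 CPM of the other 3, and 311.1 CPM of miR-19a-3p, below the 371 to 377 CPM of the others. Immunized fluid library 1 had 0.8167% of its counts in the cluster, above the 0.724 to 0.732% of the others. The ratio of miR-17-5p to miR-17-3p was 33.04 in allergic lavage cell library 6 and 59.52 in allergic serum library 7, the highest of their groups. Chance would give about 1 in 20 groups such a library, and 5 of the 54 groups examined had one.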

How the results depend on the processing

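No called value changed sign under any alternative run. Cells had 6 calls with no library set term, where miR-17-3p lost its own, and 7 under every other alternative, and serum had 0 under each. In fluid total count scaling gave 3 calls and leaving out the 2 red-cell-rich libraries 2 (added after seeing the data). The 10 differences of allergic change between compartments became 5 with total count scaling, 4 without the red blood cell entries, 3 with no filter on low counts and 3 with no library set term. Calls over untreated mice, 8 in all, became 5 with no set term. The cluster's median share in cells was 1.26 percentage points higher in allergic mice. With red blood cell entries left out of the total it was 2.01 points higher. The groups then overlapped, at 2.45 to 4.82% in allergic and 1.10 to 3.80% in non-allergic cells. The cause was not tested.

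Leaving out 1 library at a time gave 0 to 1 calls in brushings, 3 to 7 in fluid, 7 to 7 in cells and 0 to 0 in serum. It gave 6 to 12 calls over untreated mice, 7 to 8 over immunized mice and 0 to 1 for the difference of these changes. Between compartments it gave 28 to 34 calls in non-allergic mice, 29 to 31 in allergic mice and 2 to 12 for the difference of allergic change. The share difference ranged over 0.0102 to 0.172 points in brushings, 0.373 to 0.536 in fluid, 1.18 to 1.46 in cells and -0.0354 to 0.137 in serum.

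Equal replicate numbers do not show a shared mouse. Deviations of same-numbered libraries gave 10 distinct correlations per pair of compartments, since 2 libraries of a group and set mirror each other. Of these, 6 were over 0.1 for fluid and cells, 1 for fluid and serum and 2 for cells and serum. With the replicate number as a block the calls over fluid, cells and serum were 21 in place of 20 in non-allergic mice, 16 in place of 15 in allergic mice and 3 in place of 8 for the difference of allergic change.

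Depth limits miR-17-3p most, at 4 to 329 counts a library, and brushings rest on 3 libraries a side.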
